A study of Homo sapiens with 6 samples.

Results

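TRA-1-81 positive and negative cells of SW1990 were compared within pairs of libraries that carry the same number. SW1990 is an established human pancreatic cancer cell line, and the comparison uses 4 of the 6 RNA-seq libraries of the series. Flow cytometry split the parental line into a fraction with the TRA-1-81 epitope and a fraction without it, with 2 libraries for each. Every sorted library carries the number 0603 or 0610, so that each number joins 1 positive and 1 negative library. The sorted cells were parental cells kept in ordinary medium, and the labels name no drug for them. The remaining 2 libraries, 1 each, are the unsorted parental line and a gemcitabine-resistant derivative grown with 100 nM of the drug, and they enter no test here. The labels give neither the gate nor what the numbers mark, and they do not say whether the libraries came from separate cultures. The p-values therefore measure the spread between these 4 libraries alone, and that spread may be technical.

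TRA-1-81 is an antibody epitope best known from human pluripotent stem cells. It is a carbohydrate, a lactosamine structure on mucin-type glycans, and its classical carrier is podocalyxin, a heavily glycosylated surface protein. Pancreatic ductal carcinoma has been divided by its RNA into a classical form with mucin and gut epithelial genes and a basal-like form with keratins and other genes of stratified epithelia. Gemcitabine, a nucleoside drug used against this cancer, has to be taken up, phosphorylated and built into DNA, and several of the genes below make, break down or pump out such compounds.

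Of 19077 genes in the deposited table, 11533 reached an FPKM of 1 in 2 or more sorted libraries and were tested. FPKM is a read level scaled to transcript length and library size. Differences are positive minus negative on the log2(FPKM + 1) scale, with their standard error (SE) from a limma fit that has the number as a block. A gene was called when its Benjamini-Hochberg adjusted p was under 0.05. Called higher in positive cells were 919 genes (7.97% of those tested) and called lower were 565 (4.90%). Without the block, the same limma test called 1 gene higher, UGT1A6, and 0 lower, with 565 genes at an unadjusted p under 0.05. With no filter on low values it called 0 in either direction, with 3110 genes at an unadjusted p under 0.05. Centring each library on its median gave 829 higher and 791 lower, so that the share of calls that were higher went from 61.9% to 51.2%. A lower value of a gene group can mean fewer cells of a kind or less RNA in each cell, and bulk libraries cannot tell these apart.

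The differences were small and similar in both numbers. The median of the genes called higher was 0.24, and they ranged from 0.11 to 2.20. The median of the genes called lower was -0.20, and they ranged from -0.91 to -0.11. A difference of 1 or more was reached by 7 called genes, all of them higher. Both positive libraries were above both negative ones for 716 of the 919 genes called higher, against 18.6% of all genes tested. For the genes called lower, both positive libraries were below both negative ones for 382 of 565, against 11.9% of all genes tested. In the other 203 and 183 called genes the groups overlapped across the numbers. Across genes, the difference within 0603 and the difference within 0610 correlated at 0.64 (Pearson, 11527 genes, no library shared, a description), leaving out 6 genes listed at exactly 0 in 1 sorted library. With these 6 genes it was 0.42. In 3 equal groups of genes by mean FPKM it was 0.57, 0.68 and 0.78 from the low to the high group, and 10.8%, 11.9% and 15.9% of the genes were called.

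**Figure D1:**
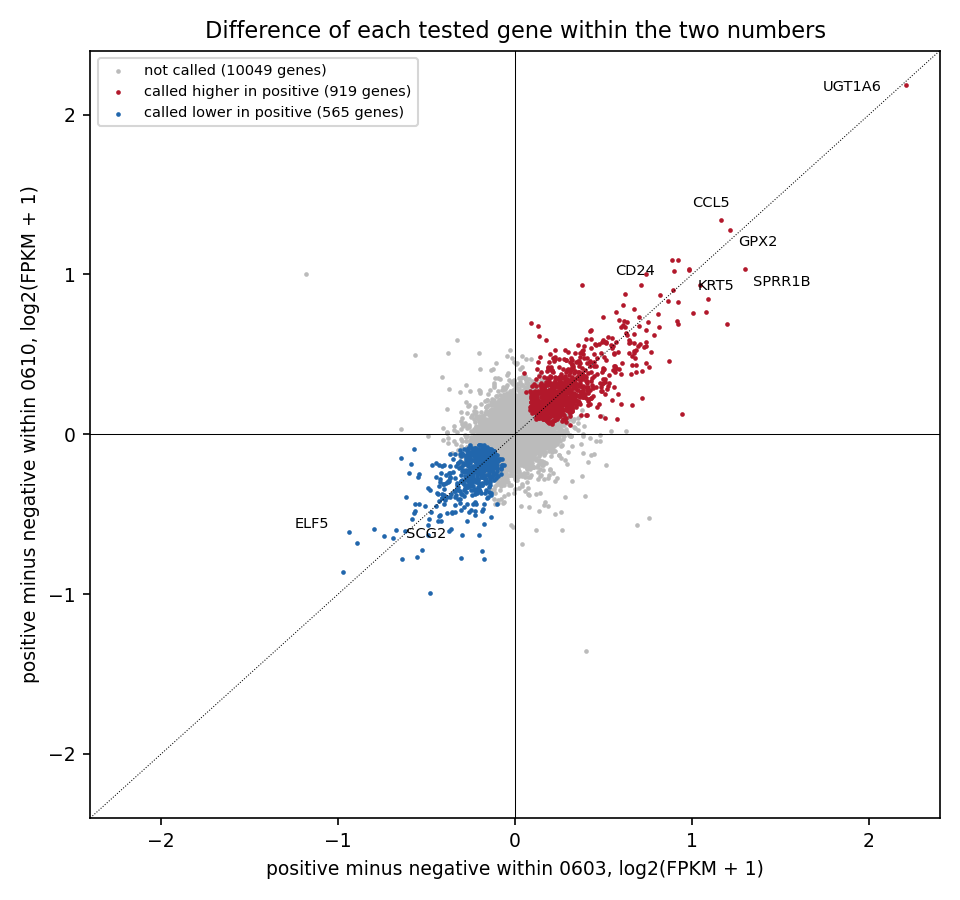
Positive minus negative difference of each tested gene within number 0603 (x axis) and within number 0610 (y axis), both on the log2(FPKM + 1) scale. Red points are the 919 genes called higher and blue points the 565 called lower, all of which have the same sign in both numbers. The dotted line marks equal differences, and 6 genes lie outside the axes, 0 of them called.

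The RNA of the epitope's carrier did not pass the test. PODXL (chr7:131185021-131241376 in hg19, the files' build), which encodes podocalyxin, was at 108 and 109 FPKM in the positive libraries (0603 and 0610, the order used throughout) and at 104 and 110.3 in the negative ones. Its difference was 0.02 ± 0.034 (limma, adjusted p = 0.735), and the groups overlapped. The RNA of the carrier does not check the sort, because the antibody reads a glycan. EZR, the cytoskeletal linker ezrin to which podocalyxin binds, was at 430.4 and 399.9 against 419.9 and 383 FPKM, and its difference of 0.05 ± 0.031 did not pass (adjusted p = 0.363). Of the 5 carrier genes tested, only SLC9A3R2, a scaffold of the same complex, was called, lower by a small amount: 69.2 and 73.04 against 77.3 and 78.2 FPKM, a difference of -0.13 ± 0.034 (adjusted p = 0.0343).

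Among enzymes that build the glycan, 3 of 20 tested chain glycosyltransferases were called higher and 0 lower, a share of 15% against 7.97% of all genes. B4GALT1, which adds galactose in lactosamine chains, was at 49.7 and 54.3 FPKM in positive and 42.4 and 47.2 in negative cells, a difference of 0.21 ± 0.034. B3GNT7 and B3GNT5, which add N-acetylglucosamine during chain extension, differed by 0.27 ± 0.051 and 0.23 ± 0.048. For all 3 genes both positive libraries lay above both negative ones. Enzymes that cap or modify chains moved the other way or in both directions. Of 15 sialyl and fucosyltransferases, 2 were called higher and 3 lower, among the latter ST3GAL4, a sialyltransferase, at 21.6 and 24.1 against 27.6 and 31.8 FPKM (-0.36 ± 0.038). ST3GAL1, which caps the core of mucin-type glycans, was also lower by a difference of -0.25 ± 0.040, as was FUT8, the core fucosyltransferase of N-glycans (-0.16 ± 0.033). Of 15 sulfotransferases, 0 were called higher and 2 lower (13.3%). These were HS6ST1, a heparan sulfate enzyme (-0.32 ± 0.034), and CHST4, which sulfates N-acetylglucosamine (-0.26 ± 0.056).

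Pluripotency factors were mostly low or absent. Of 19 listed, 12 stayed under 1 FPKM in every sorted library and 7 were tested. Of these 7, 3 were called higher (42.9%, against 7.97% of all genes tested). KLF4, a reprogramming factor that also acts in epithelial differentiation, was at 12.4 and 18.5 against 8.38 and 15.04 FPKM. Its difference of 0.40 ± 0.057 passed (adjusted p = 0.00143), yet the negative library 0610 lay above the positive library 0603. KLF5, a factor of gut and pancreatic epithelium, differed by 0.13 ± 0.032, and DNMT3B, a DNA methyltransferase, by 0.19 ± 0.055. POU5F1, the central pluripotency factor, was at 2 and 1.95 against 1.85 and 1.59 FPKM with a difference of 0.13 ± 0.072 (adjusted p = 0.279). MYC, which drives growth genes, was at 34.7 and 32.3 against 34.8 and 33.7 FPKM and was not called (-0.03 ± 0.037, adjusted p = 0.616).

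The gene with the largest called difference was UGT1A6 (chr2:234600321-234681951), whose enzyme attaches glucuronic acid to phenols and drugs. It stood at 6.69 and 6.36 FPKM in positive and 0.663 and 0.618 FPKM in negative cells. The groups were far apart, with 2.21 within 0603 and 2.19 within 0610, and the difference of 2.20 ± 0.065 passed with the block (adjusted p = 8.21e-08) and without it (adjusted p = 0.0295). Transcripts of the UGT1A locus share their last exons, so the level assigned to any one of them is uncertain. UGT1A10, the only other member tested, was at 1.54 and 1.21 against 0.448 and 0.311 FPKM (0.78 ± 0.083). Both genes were under 1 FPKM in the negative libraries and entered the test only through the positive libraries, where they are high, and a gene that enters so had to differ. The same holds for 22 of the 919 genes called higher, AKR1B10 and NKD2 among them, and 11 of the 565 called lower, CXCR4 among them, entered only through the negative libraries.

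CCL5 (chr17:34198496-34207377), a chemokine that draws T cells, was at 15.2 and 12.8 FPKM in positive and 6.24 and 4.45 in negative cells (1.25 ± 0.055, adjusted p = 1.02e-06). GPX2 (chr14:65405870-65409623), the glutathione peroxidase of gut epithelium, was at 35.5 and 40.96 against 14.7 and 16.3 FPKM (1.25 ± 0.039, adjusted p = 8.21e-08). In both genes each positive library exceeded each negative one. AQP3, a water and glycerol channel of basal epithelium, stood at 45.6 and 60.9 against 21.6 and 31.4 FPKM (0.99 ± 0.039). SLC2A9, a urate transporter, was low throughout at 3.37 and 4.34 against 1.21 and 1.62 FPKM (1.0 ± 0.066). DUSP9, a phosphatase of MAP kinases, had a difference of 0.92 ± 0.083, ECM1, a secreted matrix protein, of 0.88 ± 0.049, and CEL, the bile salt lipase of acinar cells, of 0.87 ± 0.078. None of these genes had overlapping groups.

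**Figure D2:**
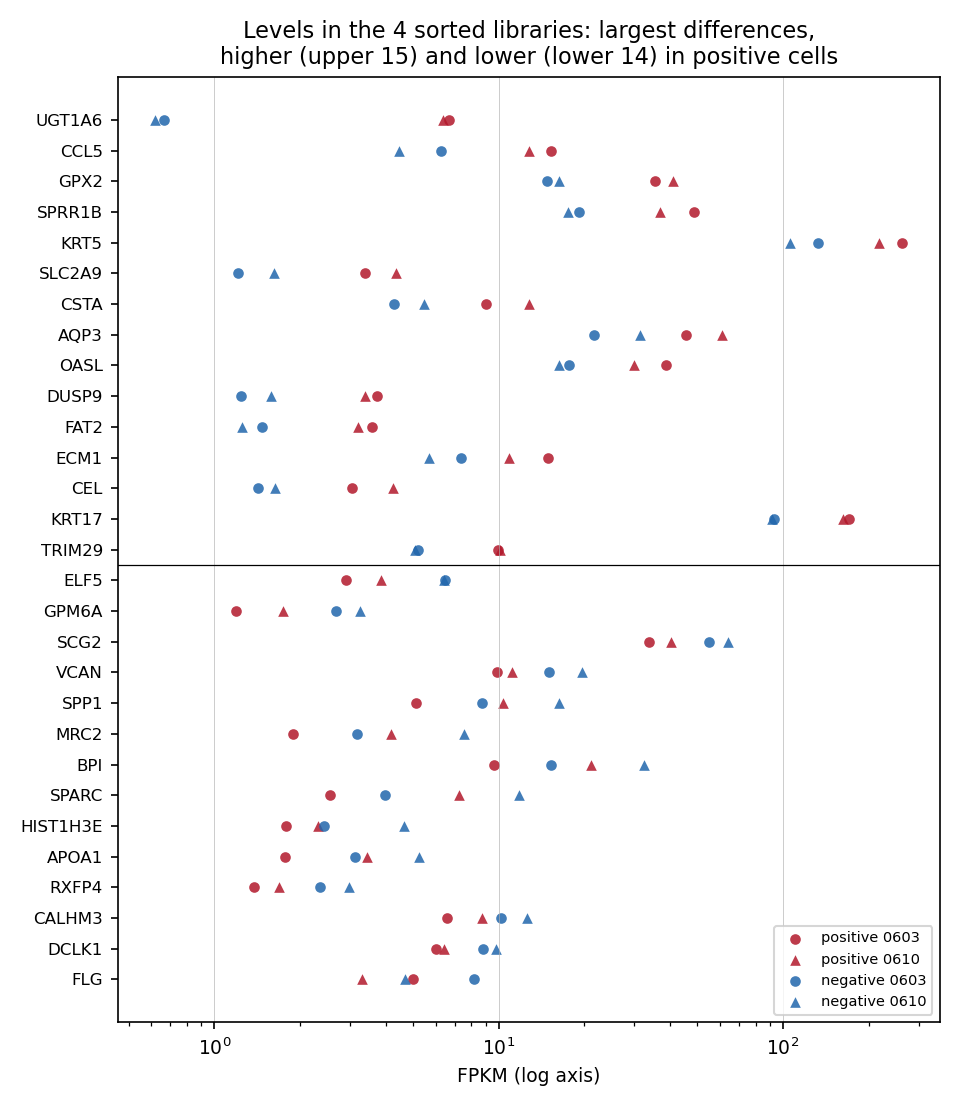
FPKM of the 15 genes with the largest called difference upwards and 14 of the 15 with the largest downwards, with a mean of at least 2 FPKM, in the 4 sorted libraries on a log axis. Small RNA genes, unnamed loci, XIST and genes on chromosome Y, CD24 among them, were left out of the choice. Circles are number 0603 and triangles 0610, red is positive and blue negative. In the upper 15 genes every red symbol lies right of every blue one, while in 6 of the lower 14 (SPP1, MRC2, BPI, SPARC, APOA1 and FLG) the groups overlap.

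Keratins and other genes of stratified epithelium formed the list with the highest median among those with at least 5 tested members. Of 18 tested basal keratins and squamous factors, 14 were called higher (77.8%, against 7.97% of all genes tested) and 0 lower. The list median was 0.55 against 0.01 over all genes tested. KRT5 (chr12:52908359-52914243), a keratin of basal cells, was at 263 and 217 FPKM in positive and 132 and 106 FPKM in negative cells (1.01 ± 0.032, adjusted p = 8.21e-08). KRT17, a keratin of basal and stressed epithelium, was at 170.3 and 163 against 92.99 and 91.2 FPKM (0.85 ± 0.032). For both keratins the lower positive library was still well above the higher negative one. TP63, the factor that sets the basal cell state, was at 6.71 and 8.15 against 3.09 and 4.59 FPKM (0.81 ± 0.063). TRIM29, a gene of basal cells, stood at 9.94 and 10.1 against 5.21 and 5.07 FPKM (0.84 ± 0.050). S100A2, a calcium-binding protein of basal cells, differed by 0.63 ± 0.032, FAT2, a giant cadherin, by 0.90 ± 0.067, and CSTA, a cysteine protease inhibitor of keratinocytes, by 1.0 ± 0.056. KRT6A, which shares much of its sequence with KRT6B, was at 115 and 80.3 against 60.4 and 49.3 FPKM (0.81 ± 0.049). How reads were split between these paralogs is not given in the sources used here. KRT15, DSC2, FGFBP1 and LY6D were the 4 members not called, with differences of 0.21, 0.17, 0.03 and -0.09.

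Genes of the cornified envelope and epithelial antiproteases followed the same pattern. Of 16 tested members, 12 were called higher (75.0%, against 7.97% of all genes tested) and 0 lower, with a median of 0.33. SPRR1B (chr1:153003679-153005376), a small proline-rich envelope protein, was at 48.5 and 36.97 against 19.1 and 17.6 FPKM (1.17 ± 0.056, adjusted p = 1.88e-06). PI3, the elastase inhibitor elafin, was at 19.6 and 20.4 against 11.2 and 12.2 FPKM (0.73 ± 0.042), and SERPINB2, a plasminogen activator inhibitor, at 78.2 and 77.7 against 57.1 and 54.7 FPKM (0.47 ± 0.034). SLPI, another antiprotease, was high in all libraries at 273 and 284 against 203 and 225 FPKM (0.38 ± 0.034). Another 13 listed members were not tested for low values. FLG, the filaggrin of the outer skin, stood outside the list and was lower by -0.51 ± 0.065, with overlapping groups at 4.99 and 3.31 against 8.18 and 4.66 FPKM.

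Most tested mucins, and a smaller share of the attachment genes, were called higher. Of 6 tested mucins, 5 were called higher (83.3%, against 7.97% of all genes tested) and 0 lower, with a median of 0.29. MUC4, a transmembrane mucin, was at 4.53 and 5.38 against 2.6 and 2.48 FPKM (0.75 ± 0.072), and MUC1 at 337 and 367 against 297 and 278 FPKM (0.29 ± 0.046). In MUC2, the gel-forming mucin of gut, the groups overlapped at 3.69 and 7.52 against 2.64 and 4.99 FPKM, although each number gave a rise. Of 17 classical subtype genes, 6 were called higher (35.3%) and 1 lower (5.88%), against 7.97% and 4.90% of all genes tested. CEACAM5, a carcinoembryonic antigen, differed by 0.51 ± 0.055, ANXA10 by 0.50 ± 0.061, and the abundant CEACAM6 by 0.18 ± 0.031 at 380.5 and 415 against 337 and 365 FPKM. GATA6, the factor most tied to the classical form, was not called (-0.02 ± 0.053, adjusted p = 0.859). COL17A1, a hemidesmosome collagen that anchors basal cells, was at 63.8 and 56.2 against 38.9 and 34.7 FPKM (0.69 ± 0.034), and COL7A1, of anchoring fibrils, differed by 0.49 ± 0.052. They led 7 of 21 integrin, laminin and basement membrane genes called higher (33.3%), with 0 lower and a median of 0.07 over the list. Among 24 junction genes, 7 were called higher (29.2%) and 0 lower, with a median of 0.10, led by CDH3 (0.37 ± 0.049), a cadherin of basal cells, and CDH1 (0.20 ± 0.033), the epithelial cadherin, while EPCAM was not called (0.03 ± 0.033, adjusted p = 0.644).

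Interferon-stimulated genes, which encode sensors and effectors against viruses, were higher as a group. Of 40 tested, 33 were called higher (82.5%, against 7.97% of all genes) and 0 lower, with a median of 0.29 (0.36 within 0603 and 0.24 within 0610). OASL (chr12:121458095-121477045), an antiviral protein of the oligoadenylate synthetase family, was at 38.6 and 29.98 FPKM in positive and 17.6 and 16.2 FPKM in negative cells (0.97 ± 0.054, adjusted p = 4.41e-06). IFIT2 and IFIT3, antiviral proteins of 1 family, stood at 25.9 and 23.7 against 16.1 and 15.6 FPKM (0.61 ± 0.041) and at 74.5 and 61.9 against 52.3 and 46.5 FPKM (0.45 ± 0.036). ISG15, a ubiquitin-like modifier, was among the most abundant members at 630.2 and 569.5 against 478 and 444 FPKM (0.38 ± 0.032). In each of these 4 genes both positive libraries were above both negative ones. That held for 34 of the 40 members, against 18.6% of all genes tested. The 7 members not called were IFI35, IFIT5, IFI27, IFITM2, MX2, IFITM3 and IFITM1, with differences from 0.04 to 0.13.

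The promoters of this group are shown because its members moved together. The interferon-stimulated response element, searched as GAAA, any 2 bases and GAAA on both strands in the 250 bases before the gene start (RefSeq, GRCh38.p14), was in 18 of 28 called members with a promoter (64.3%). It was in 3.07% of all 27195 promoters and in 2.26% of the 9518 tested genes with a promoter. Among all called genes with a promoter, it was in 5.96% of 721 higher and 3.61% of 443 lower. The list was assembled as interferon-stimulated genes, so its share describes the list and does not bear on the sort. The windows below were chosen among called members with a match. Windows of 5 called members read 5′ to 3′ on the gene's strand, with matches in capitals, so that a match on the opposite strand appears as TTTC, 2 bases and TTTC:
ISG15 (chr1:1013360-1013429, plus strand): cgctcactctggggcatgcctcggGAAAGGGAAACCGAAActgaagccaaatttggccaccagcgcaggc
IFIT3 (chr10:89327841-89327914, plus strand): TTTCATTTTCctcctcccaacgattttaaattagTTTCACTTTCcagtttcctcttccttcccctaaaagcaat
DDX60 (chr4:168318766-168318840, minus strand): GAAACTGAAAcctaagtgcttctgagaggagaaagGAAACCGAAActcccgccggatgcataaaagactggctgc
SAMD9 (chr7:93118076-93118145, minus strand): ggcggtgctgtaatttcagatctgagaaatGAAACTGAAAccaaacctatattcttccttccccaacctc
IFI44 (chr1:78649741-78649788, plus strand): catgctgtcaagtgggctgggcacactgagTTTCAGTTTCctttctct
ISG15 carries 2 overlapping matches, and IFIT3 and DDX60 carry 2 separate ones. The levels that go with these windows were 40.5 and 43.3 against 27.1 and 32.4 FPKM for DDX60, a helicase (0.48 ± 0.043), 47.6 and 42.5 against 31.7 and 31.6 for SAMD9, an antiviral factor (0.49 ± 0.043), and 57.4 and 57.9 against 46.8 and 46.3 for IFI44 (0.30 ± 0.034). A match describes letters in a window and is not a site shown to be bound. The gamma-activated site TTCNNNGAA, which can overlap such a match, was in 5 of the 28 (17.9%) against 6.79% of all promoters.

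Class I antigen presentation displays peptides to T cells. Of 20 tested members, 13 were called higher (65.0%, against 7.97% of all genes tested) and 0 lower, with a median of 0.28. HLA-B was at 470.1 and 536 against 281 and 359 FPKM (0.66 ± 0.040) and HLA-F at 33.5 and 38.5 against 21.5 and 23.8 (0.65 ± 0.037). The HLA genes are near copies of each other, so that the share of reads given to each is uncertain. B2M, the light chain that all of them share, was at 1029 and 1033 against 822 and 864 FPKM (0.29 ± 0.034). TAP1, which pumps peptides into the endoplasmic reticulum, was at 181 and 175 against 128 and 131 FPKM (0.45 ± 0.034). Both genes kept the positive libraries apart from the negative ones. The response element was in 4 of 9 called members with a promoter (44.4%). This list too was assembled by function, so that share describes the list and does not bear on the sort. The windows of TAP1, with 2 overlapping matches, and HLA-F read as follows:
TAP1 (chr6:32853793-32853862, minus strand): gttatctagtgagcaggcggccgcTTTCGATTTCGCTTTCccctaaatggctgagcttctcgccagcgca
HLA-F (chr6:29723248-29723317, plus strand): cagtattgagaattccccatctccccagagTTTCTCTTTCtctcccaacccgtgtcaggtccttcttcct
The regulators themselves moved less. Of 14 interferon regulatory and STAT factors, 4 were called higher (28.6%, against 7.97% of all genes tested) and 0 lower. Among the 4 were IRF9, a subunit of the interferon-activated complex (0.20 ± 0.040), and IRF1 (0.20 ± 0.045). Of 25 NF-kB and inflammatory genes, 6 were higher and 2 lower, with IL18 at 57.2 and 55.7 against 46.02 and 49.2 FPKM (0.24 ± 0.039). IL1A rose by 0.21 ± 0.036 with a much larger gap between numbers than between fractions, at 18.3 and 54.9 FPKM against 15.6 and 47.8.

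**Figure D3:**
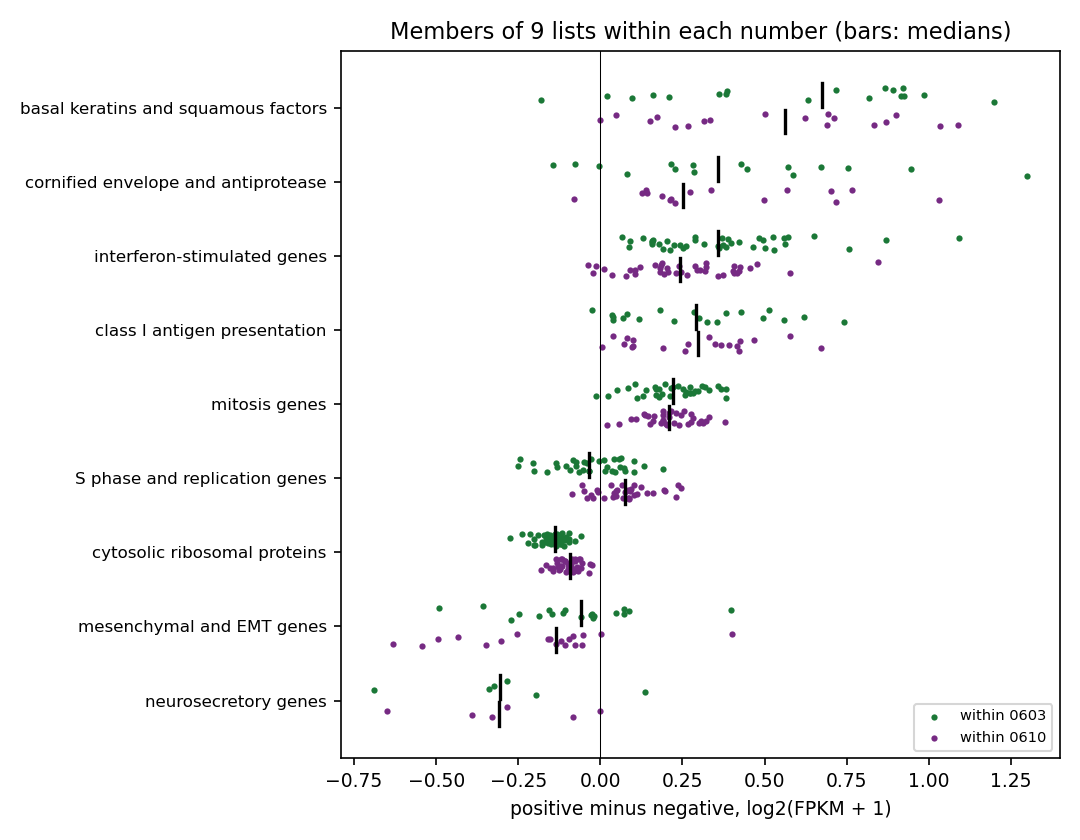
Positive minus negative difference, log2(FPKM + 1), of every tested member of 9 gene lists within number 0603 (green) and within 0610 (purple), with black bars at the medians. Interferon-stimulated, class I and mitosis genes lie almost wholly right of 0 in both numbers, S phase genes straddle 0, and ribosomal protein genes lie left of 0 in both.

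Genes of mitosis were higher by a small and even amount. Of 35 tested, 30 were called higher (85.7%) and 0 lower, with a median of 0.23 and a range from 0.02 to 0.34. CDK1 (chr10:62538089-62554610), the kinase that drives entry into mitosis, was at 173 and 179 against 139 and 142 FPKM (0.32 ± 0.031, adjusted p = 0.000141). TOP2A, which untangles chromosomes, was at 140.1 and 158 against 107 and 128 FPKM (0.34 ± 0.034), and UBE2C, which tags mitotic proteins for destruction, at 237 and 269 against 185 and 222 FPKM (0.32 ± 0.033). The 5 members not called were KIF20A, BUB3, CCNB2, CDC20 and FOXM1. Genes of S phase and replication gave a different picture, with 0 called lower and a median of 0.02. Of 35 tested, 2 were called higher (5.71%, against 7.97% of all genes tested). These were the replication fork subunits GINS1 (0.21 ± 0.041) and GINS3 (0.16 ± 0.047). Whether the 2 lists differ was not tested.

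The cell cycle homology region, a promoter element of many mitotic genes, was searched as TTTGAA on both strands. It was in 14 of 25 called mitosis genes with a promoter (56.0%), against 13.6% of all promoters and 8.10% of tested genes with one. Among all called genes with a promoter, its share was above 8.10% both for those higher and for those lower. The list was assembled as mitosis genes, so the share of 56.0% describes the list and does not bear on the sort. The windows of CDK1, TOP2A and KIF23, a motor of cytokinesis at 24.4 and 26.4 against 20.1 and 21.1 FPKM (0.29 ± 0.039), hold these matches in capitals, that of TOP2A on the opposite strand as TTCAAA:
CDK1 (chr10:60778140-60778205, plus strand): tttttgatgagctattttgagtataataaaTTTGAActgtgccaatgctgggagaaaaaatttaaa
TOP2A (chr17:40418012-40418077, minus strand): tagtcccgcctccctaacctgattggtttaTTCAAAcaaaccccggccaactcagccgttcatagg
KIF23 (chr15:69414264-69414329, plus strand): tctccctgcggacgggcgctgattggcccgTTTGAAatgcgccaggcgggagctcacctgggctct
Replication-dependent histones have copies that resemble each other, and their main transcripts lack a poly(A) tail. Of 15 tested, 5 were called lower (33.3%) and 1 higher (6.67%), with a median of -0.18. HIST1H2BD was at 26.5 and 29.7 against 30.7 and 37.1 FPKM (-0.26 ± 0.040), with both positive libraries below both negative ones. HIST1H3E, a histone gene outside the list, was lower by a larger difference (-0.54 ± 0.098). Of 22 p53 targets, 5 were called higher (22.7%) and 1 lower (4.55%), against 7.97% and 4.90% of all genes tested. PMAIP1, the death factor Noxa, was at 18.7 and 18.6 against 10.95 and 13.9 FPKM (0.56 ± 0.065). CDKN1A, the cycle inhibitor p21, gave 0.33 ± 0.057 with overlapping groups at 27.03 and 54.4 against 19.2 and 47.6 FPKM.

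Detoxification genes were called in both directions. Of 24 tested NRF2 targets, 4 were called higher (16.7%) and 2 lower (8.33%), against 7.97% and 4.90% of all genes tested. The list median was 0.01. Besides GPX2, the higher members were AKR1B10 at 2.59 and 2.45 against 0.938 and 0.621 FPKM (0.99 ± 0.080), AKR1C2 at 2.66 and 2.58 against 1.3 and 1.52 (0.59 ± 0.074) and ABCC3 (0.15 ± 0.040). AKR1B10 and AKR1C2 are aldo-keto reductases with close paralogs, and AKR1C1 and AKR1C3 were not called, with differences of -0.14 and -0.12. NQO1, a standard NRF2 target, was lower at 158 and 179 against 179 and 205 FPKM (-0.19 ± 0.031), and so was FTL, the ferritin light chain (-0.21 ± 0.039). GPX2 carries 1 antioxidant response element, searched as TGACNNNGC, which is in 11% of all promoters, and its window shows the match on the opposite strand:
GPX2 (chr14:64942829-64942897, minus strand): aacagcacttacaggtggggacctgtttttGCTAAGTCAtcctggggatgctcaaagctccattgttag

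Of 7 genes for the uptake and activation of gemcitabine, 1 was called higher (14.3%, against 7.97% of all genes tested) and 0 lower. DCK, the kinase that first phosphorylates gemcitabine, was at 17.5 and 16.7 against 15.9 and 15.8 FPKM, a difference of 0.11 ± 0.041 that did not pass (adjusted p = 0.118). SLC29A1, its main uptake transporter, was at 17.9 and 14.1 against 18.7 and 14.7 FPKM (-0.06 ± 0.041, adjusted p = 0.398). TK2, a mitochondrial deoxynucleoside kinase, was the member called (0.24 ± 0.069, adjusted p = 0.0476), with overlapping groups. Its call was lost in 8 of 10 other settings that kept all 4 libraries, where its adjusted p from limma ranged from 0.0386 to 0.9999. SLC29A2, CMPK1, NME1 and NME2 had differences from -0.09 to 0.03 and were not called.

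Of 11 genes that inactivate the drug or are its targets, 3 were called higher (27.3%, against 7.97% of all genes tested) and 0 lower. CDA (chr1:20915444-20945400), the deaminase that inactivates gemcitabine, was at 45.8 and 33.6 against 36.7 and 24.3 FPKM (0.38 ± 0.042, adjusted p = 0.00028). Each number gave a higher positive library, but the negative library 0603 lay above the positive library 0610. RRM2, the regulated subunit of ribonucleotide reductase, was at 97.2 and 84.1 against 81.4 and 66.5 FPKM (0.29 ± 0.034), without overlap. SAMHD1, which cleaves deoxynucleotide triphosphates, was at 45.8 and 47.2 against 42.5 and 41.9 FPKM (0.14 ± 0.036). RRM1, DCTD, NT5C, NT5C2, NT5C3, NT5E, RRM2B and TYMS were not called, with differences from -0.06 to 0.10. Among 6 drug efflux pumps, ABCC5, which exports nucleotides, was higher at 15.3 and 13.2 against 12.3 and 9.7 FPKM (0.35 ± 0.047), ABCC3 was higher and ABCG2 was lower at 11.2 and 11.3 against 12.5 and 12.96 FPKM (-0.16 ± 0.044).

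Markers used elsewhere for pancreatic cancer stem cells went in both directions. Of 16 tested, 3 were called higher (18.8%) and 4 lower (25.0%), against 7.97% and 4.90% of all genes tested. CD24, a surface glycoprotein, was at 29.8 and 24.4 against 15.5 and 11.5 FPKM (0.96 ± 0.044). Its locus in the table is a copy on chromosome Y, so that its reads may come from other copies. ALDH3A1, an aldehyde dehydrogenase, was at 127 and 133 against 94.03 and 109 FPKM (0.35 ± 0.039), and the receptor MET differed by 0.23 ± 0.033. DCLK1, a kinase of tuft cells, was lower at 5.99 and 6.45 against 8.8 and 9.77 FPKM (-0.51 ± 0.049), with both positive libraries below both negative ones. CXCR4, a chemokine receptor, was low and lower still in positive cells (-0.49 ± 0.088), ABCG2 was lower as given above, and CD44, the hyaluronan receptor, was lower by a small amount at 149.5 and 152 against 156 and 174 FPKM (-0.13 ± 0.037).

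Among the genes called lower in positive cells with a mean of at least 2 FPKM, ELF5 (chr11:34500342-34535347), a factor of secretory epithelia, had the largest difference. Small RNA genes, unnamed loci and genes on chromosome Y were left out of that ranking. ELF5 was at 2.89 and 3.85 against 6.46 and 6.42 FPKM (-0.78 ± 0.076, adjusted p = 0.000139). SCG2 (chr2:224461658-224467217), a granin of secretory granules, was at 33.7 and 40.5 against 54.99 and 64.1 FPKM (-0.67 ± 0.034, adjusted p = 2.73e-06). In both genes each positive library was below each negative one. SCG2 led the neurosecretory list, which had a median of -0.31. In it, 4 of 6 tested members were called lower (66.7%, against 4.90% of all genes tested) and 0 higher. CALB2, the calcium binder calretinin, was at 34.03 and 41.5 against 43.3 and 54.7 FPKM (-0.36 ± 0.035), BDNF, a neurotrophin, at 15.4 and 15.7 against 19.5 and 20.02 (-0.33 ± 0.040), and CPE, a hormone-processing peptidase, differed by -0.29 ± 0.054. Another 13 listed members stayed under 1 FPKM in every sorted library. GPM6A, a neuronal membrane protein, differed by -0.69 ± 0.070, CALHM3, a channel subunit of taste cells, by -0.52 ± 0.048, and the peptide receptor gene RXFP4 by -0.53 ± 0.069.

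Matrix and mesenchymal genes were lower in part. Of 19 tested mesenchymal genes, 7 were called lower (36.8%) and 1 higher (5.26%), against 4.90% and 7.97% of all genes tested. The list median was -0.10. VCAN, a matrix proteoglycan outside the list, was at 9.88 and 11.1 against 15.01 and 19.7 FPKM (-0.66 ± 0.054). MMP2, a gelatinase, was at 27.9 and 28.1 against 36.05 and 39.9 FPKM (-0.43 ± 0.042). VIM, the mesenchymal intermediate filament, was at 285 and 345 against 317 and 425 FPKM (-0.23 ± 0.038), with the negative library 0603 below the positive library 0610. FN1, fibronectin, differed by -0.41 ± 0.055 and ZEB1, a repressor of epithelial genes, by -0.30 ± 0.062. SNAI2, a mesenchymal factor that basal epithelium also uses, was the member called higher at 20.9 and 17.4 against 15.6 and 12.98 FPKM (0.40 ± 0.041). CDH2, the mesenchymal cadherin, was not called (-0.08 ± 0.077, adjusted p = 0.568).

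Several secreted proteins were lower within each number while the numbers themselves stood far apart. SPP1, osteopontin, was at 5.13 and 10.4 against 8.76 and 16.2 FPKM (-0.64 ± 0.048). SPARC, a collagen-binding matrix protein, was at 2.55 and 7.25 against 3.99 and 11.8 FPKM (-0.56 ± 0.057). BPI, a bactericidal protein, was at 9.6 and 21.03 against 15.3 and 32.5 FPKM (-0.61 ± 0.040). MRC2, a collagen receptor, and APOA1, the main HDL protein, behaved likewise, with differences of -0.62 ± 0.066 and -0.53 ± 0.062. In all 5 genes the positive library 0610 lay above the negative library 0603, so the groups overlapped.

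TGF-beta and BMP signalling genes were lower in 7 of 26 tested members (26.9%) and higher in 0, with a median of -0.05. ID3 and ID2, inhibitors of basic helix-loop-helix factors and targets of BMP, were at 13.96 and 14.1 against 17.4 and 22.4 FPKM (-0.46 ± 0.066) and at 12.2 and 12.9 against 14.8 and 18.4 FPKM (-0.37 ± 0.055). The BMP inhibitor NOG differed by -0.36 ± 0.054, the ligand BMP4 by -0.21 ± 0.038 and the receptor TGFBR2 by -0.20 ± 0.039. ID1, another ID gene of the list, was not called (0.06 ± 0.031, adjusted p = 0.243). Of 16 ERK feedback genes, 2 were called higher (12.5%) and 4 lower (25.0%), against 7.97% and 4.90% of all genes tested. SPRY2, which restrains growth factor signals, was lower at 41.2 and 46.4 against 53.3 and 61.2 FPKM (-0.38 ± 0.034), ETV4, an ERK-driven factor, was lower by -0.26 ± 0.036, and DUSP9 was the larger of the 2 that were higher.

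Other signalling lists moved in a few members. Of 16 Notch genes 3 were called higher (18.8%, against 7.97% of all genes tested) and 0 lower. HES4, a target, was at 10.3 and 14.2 against 7.79 and 10.6 FPKM (0.38 ± 0.045). LFNG, which modifies the receptor, differed by 0.32 ± 0.044 and the ligand JAG2 by 0.16 ± 0.037. Of 22 Wnt genes 4 were called higher (18.2%) and 3 lower (13.6%, against 4.90% of all genes tested). The ligand WNT10A was at 15.2 and 12.3 against 11.3 and 8.05 FPKM (0.47 ± 0.051). The inhibitor NKD2 differed by 0.60 ± 0.081 and the co-receptor LRP5 by -0.22 ± 0.033. Of 19 AP-1 and immediate early genes 5 were called higher (26.3%) and 1 lower (5.26%). JUND had a difference of 0.20 ± 0.038. JUNB and EGR1, which are induced fast and briefly by growth factors and stress, had differences of 0.20 ± 0.039 and 0.21 ± 0.046. The groups overlapped in each of these genes. Of 9 EGF receptor and ligand genes, 1 was called higher (11.1%, against 7.97% of all genes tested) and 0 lower. It was EREG, with a difference of 0.13 ± 0.035. Of 7 gap junction genes, 2 were called higher (28.6%), among them GJB5 (0.16 ± 0.045), and 1 lower (14.3%). The lower one was GJA5, at 12.02 and 11.8 against 16.8 and 16.5 FPKM (-0.45 ± 0.042).

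Cytosolic ribosomal proteins were lower in small, even steps. All 44 tested were lower in positive cells within both numbers, against 30.5% of all genes tested. Of the 44, 22 were called lower, against 4.90% of all genes tested. Called higher were 0, and the median was -0.12. RPS3 was at 1450.2 and 1447 against 1668 and 1640.2 FPKM (-0.19 ± 0.034), RPS25 at 818 and 784 against 925 and 873 (-0.17 ± 0.032) and RPL3 at 873 and 945 against 980.3 and 1059 (-0.17 ± 0.032). These calls depend on the scaling: 3 members were called lower after quantile normalization, with a median of -0.04, 33 after median centring, and 0 without the mean trend in the fit. Many of these genes have processed copies elsewhere in the genome, and how their reads were shared is not given in the sources used here. Translation factors were called lower in 5 of 21 (23.8%, against 4.90% of all genes tested) and higher in 0. The elongation factor EEF1G was at 1320.2 and 1293 against 1490.5 and 1444 FPKM (-0.17 ± 0.033), and EIF4B, an initiation factor, differed by -0.16 ± 0.034.

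Genes of core metabolism were called in a few members, mostly as lower. Among 31 respiratory chain subunits 0 were called higher and 1, NDUFB8, lower (-0.13 ± 0.033), which is 3.23% against 4.90% of all genes tested. Among 21 cholesterol synthesis genes 0 were higher and 1 (4.76%), LSS, lower (-0.16 ± 0.034), and among 20 genes of the integrated stress response 0 were called in either direction, with differences from -0.08 (PSPH) to 0.11 (ATF3). In 28 genes of glycolysis and hypoxia, 1 was higher (3.57%) and 4 lower (14.3%). VEGFA, a hypoxia target, was the higher one at 25.9 and 52.2 against 19.3 and 41.5 FPKM (0.37 ± 0.038), with overlapping groups, and the glucose transporter SLC2A3 (-0.33 ± 0.046) and the enzyme PFKL (-0.12 ± 0.033) were among the lower ones. PKM, the last enzyme of glycolysis, is listed at 0 in the positive library 0603 and at 1139 FPKM in the positive library 0610, and no difference is given for it. Of 22 chaperones, 2 were called higher (9.09%, against 7.97% of all genes tested) and 0 lower. They were the near copies HSPA1A and HSPA1B, at 0.31 ± 0.035 and 0.27 ± 0.035, with overlapping groups.

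**Figure D4:**
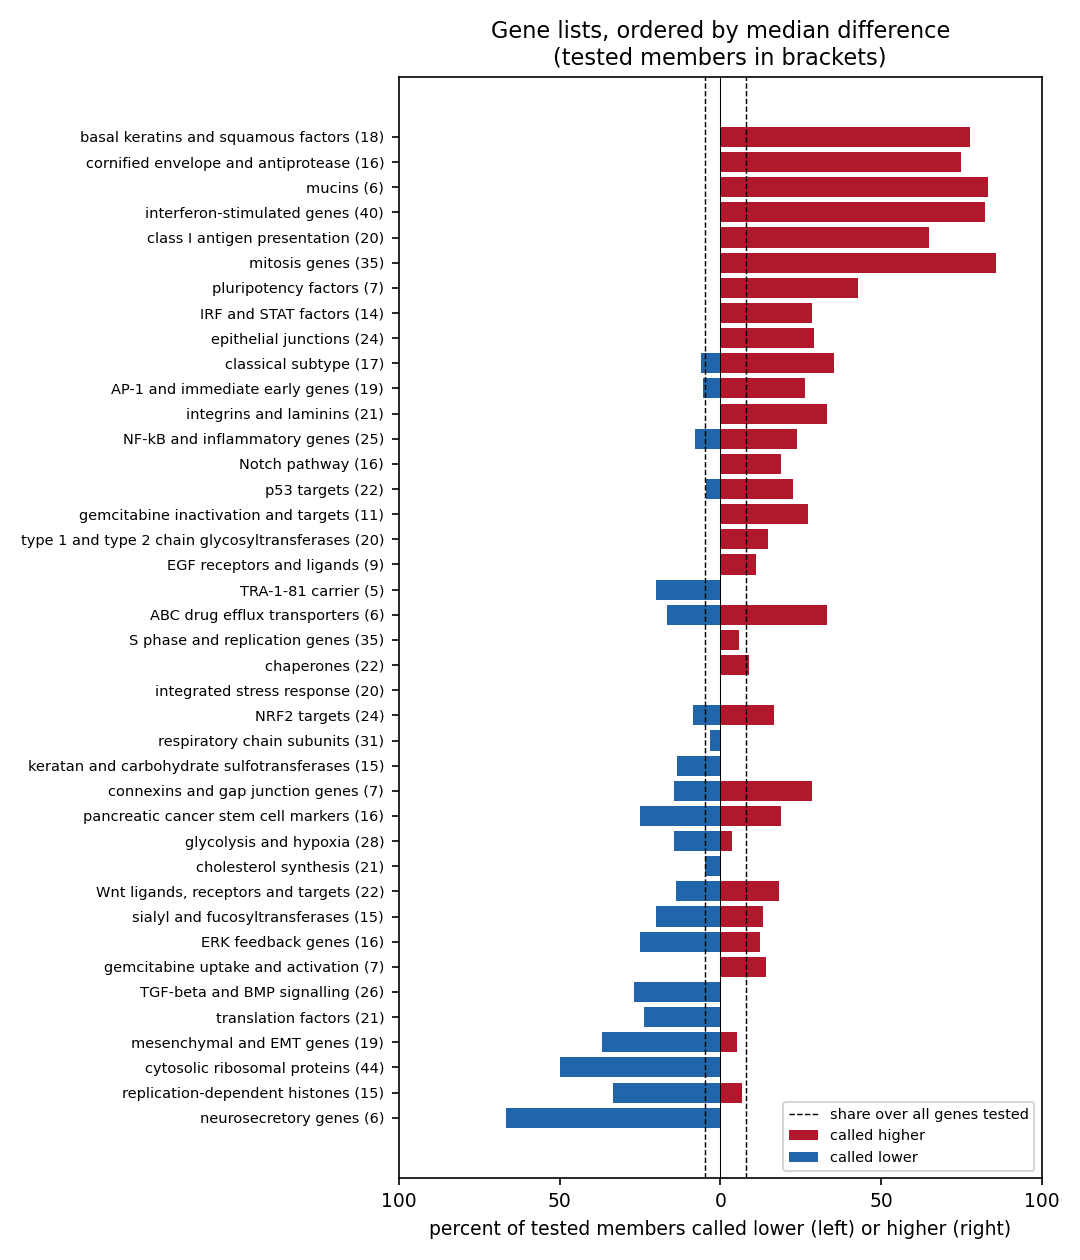
Share of tested members called higher (red, right) and lower (blue, left) in positive cells, in percent, for the gene lists with at least 5 tested members, ordered by their median difference. Dashed lines mark the shares over all genes tested, 7.97% higher and 4.90% lower, and the lists of mitosis, mucin, interferon-stimulated, basal and cornified genes reach furthest to the right.

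The numbers 0603 and 0610 differed more than the fractions. Leaving out the 6 genes listed at 0, the SD across genes of the difference between numbers was 0.20, and that of the difference between fractions 0.13. A difference of at least 1 was found for 43 genes between the numbers and for 7 between the fractions. Genes with opposite signs in the numbers, chosen for the widest gap at a mean of at least 5 FPKM, included CHD3, RAB4B, MTRNR2L10 and MTRNR2L6. CHD3 is listed at 0 in the negative library 0603, so no difference is given for it. RAB4B, a regulator of vesicle recycling, was at 8.17 and 9.97 against 5.9 and 11.4 FPKM, higher by 0.41 in 0603 and changed by -0.17 in 0610.

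Markers of the labelled cell type were present and those of other cells were low. KRT7, KRT8, KRT18, KRT19 and EPCAM mark ductal epithelium, and the 10 ductal markers summed to between 5220 and 6179 FPKM in the sorted libraries (5669 and 5220 positive, 6179 and 5402 negative). KRT8 was lower in positive cells at 1904 and 1674 against 2291 and 1918 FPKM (-0.23 ± 0.036). The 14 leukocyte markers summed to 29.6 and 26.5 FPKM in positive and 24.0 and 23.0 in negative libraries. Most of that sum was CD68, a lysosomal protein (0.25 ± 0.044), with MS4A1 listed at 0 in each and 12 of 14 under 1 FPKM. Their part in the higher interferon-stimulated and class I genes was not tested. The 12 fibroblast markers summed to 7.94 and 8.98 FPKM in positive and 7.74 and 11.2 in negative libraries, with DCN and THY1 listed at 0. Of the 4 fibroblast markers tested, 0 were called higher and 1 lower (25.0%, against 4.90% of all genes tested), with a median of 0.03. The 1 called was POSTN, a matrix protein of fibroblasts, at 0.366 and 1.05 against 0.906 and 3.08 FPKM (-0.74 ± 0.11), with overlapping groups. COL1A1, a collagen, was at 2.44 and 3.11 against 2.27 and 3.10 FPKM and was not called. The part of fibroblasts in the lower matrix genes was not tested. The 14 acinar and islet markers summed to at most 10.6 FPKM, most of it PRSS3, a trypsinogen (0.59 ± 0.070), and the 10 endothelial markers to at most 12.2 FPKM.

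The unsorted parental library stood apart from all 4 sorted ones. It lay below all 4 in 45.1% and above all 4 in 35.7% of the genes tested. KRT5 was at 24.1 FPKM in it, CEACAM6 at 50.2, HLA-B at 31.1 and SCG2 at 31.5 FPKM. The sorted cells are labelled as portions of that line. For these 4 genes all 4 sorted libraries were above the unsorted one, while ELF5 was at 36.5 FPKM in the unsorted library, above all 4 sorted ones.

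Values of the resistant derivative were set beside the sorted ones as a description, since it and the parental line have 1 library each and share none with the sorted comparison. Of all genes tested, 11.4% were at least 2-fold above the parental value in the resistant library and 6.98% at least 2-fold below it, on the log2(FPKM + 1) scale. Of the 919 genes called higher in positive cells, 45.7% (420 genes) were at least 2-fold above and 1.74% (16 genes) below, with a median log2 ratio of 0.86 against 0.06 for all genes tested. Of the 565 genes called lower, 6.55% (37 genes) were above and 29.4% (166 genes) below, with a median of -0.49. UGT1A6 was at 55.5 FPKM in the resistant library, KRT5 at 1201, KRT17 at 1317, GPX2 at 182 and CD24 at 208 FPKM, each above all 4 sorted libraries. ELF5, SCG2 and BPI were at 0.0761, 1.24 and 0.0875 FPKM, each below all 4. Among the exceptions was TOP2A, higher in positive cells and at 105 FPKM in the resistant against 159 in the parental library. Another was MMP2, lower in positive cells and at 40.9 against 17.99 FPKM. The 35 mitosis genes summed to 1729.5 FPKM in the resistant and 2413.2 in the parental library. The resistant value lay below all 4 sorted libraries in 17.3% of the genes called higher, against 40.4% of all genes tested. It lay above all 4 in 21.6% of those called lower, against 43.3%. The parental value below and the resistant value above all 4 sorted libraries was found for 42.2% of the genes called higher, against 18.8% of all genes tested, and the reverse order for 24.2% of those called lower, against 13.2%.

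**Figure D5:**
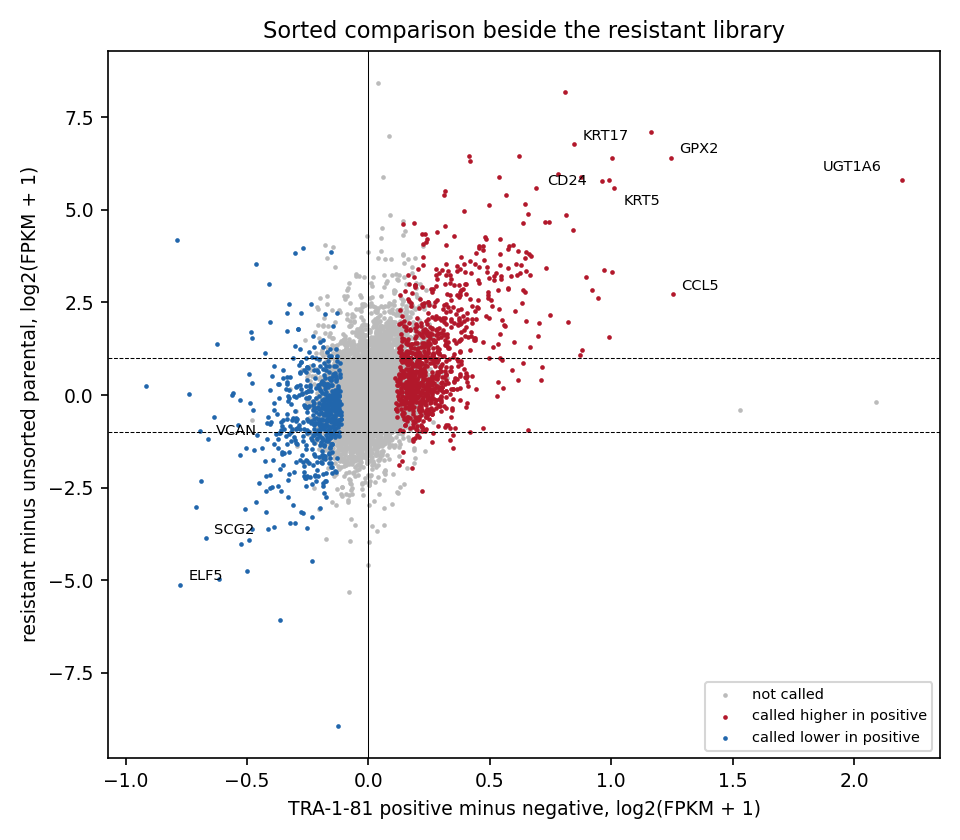
Positive minus negative difference in the sorted libraries (x axis) and resistant minus unsorted parental difference (y axis, 1 library each), both on the log2(FPKM + 1) scale. Red points are genes called higher and blue points genes called lower in positive cells, dashed lines mark a 2-fold difference, and 4 genes lie outside the x axis. The red points reach above the upper line more often (45.7%) than all genes tested (11.4%).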

How the data were processed

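RNA was sequenced from 4 sorted libraries of SW1990 cells, beside 1 unsorted parental and 1 resistant library. The authors deposited 1 table of gene values whose header names no unit. They are treated as deposited FPKM, the unit that Cufflinks writes. Cufflinks 2.1.1, TopHat2 2.0.11, CASAVA 1.8.2 and the build hg19 are named in the submitters' processing notes, without roles or settings. The library depth is unknown, and between 11379 and 11483 genes per sorted library had an FPKM of at least 1. An exact 0 can be a failed estimate, as in PKM and CHD3. For the 191 symbols on more than 1 of the 19312 rows, the row of highest mean was kept (235 rows left out). Printed starts are 1 higher than in the table, which appears to count from 0: read that way, 317 of 353 short olfactory receptor genes span a multiple of 3 bases.

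Log2(FPKM + 1) values were fitted with limma 3.58.1 in R 4.3.3 (two-sided moderated test with a mean trend, Benjamini-Hochberg over the 11533 genes tested), with the number as a block. The block leaves 1 residual degree of freedom per gene, to which the fit adds 9.06 from the other genes. The fit was tested on simulated data. The scale of log2(FPKM + 1) understates the change of low genes. Whether the numbers pair the samples is not stated in the labels. Across genes, the 0603 minus 0610 gap of the positive libraries correlated at 0.654 with that of the negative ones (0.831 without the 6 genes listed at 0 in 1 sorted library). The members and the 46 gene lists were chosen with earlier results of these data known. Named genes are first the 15 largest called differences in each direction with a mean of at least 2 FPKM. Small RNA genes, unnamed loci, XIST and genes on chromosome Y, CD24 among them, were left out of these 15. The others are all tested carrier, pluripotency and gemcitabine genes, up to 3 called members by smallest p of each other list, and the 5 genes of widest opposite differences. Further members are named as examples after their values were seen. Promoter letters were counted on both strands in Python 3.11.15 for the 9518 tested genes matched by symbol to RefSeq promoters of GRCh38.p14. Some named genes are not reported here. No set test was run. Alternatives were no block, pseudocounts of 0.1 and 5, other filters and scalings, no mean trend, summed rows and each library left out. Chosen after seeing the data were a filter of 0.1 FPKM and leaving out the genes listed at 0.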

Additional observations from a re-analysis of the deposited data

How the results depend on the processing

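The counts of 919 genes higher and 565 lower depend on the replicate block. With no replicate block, 1 was called higher and 0 lower, 131 named results kept their direction and lost their call, and 565 genes had an unadjusted p under 0.05. The cause was not tested. With each library left out in turn, which also drops the block, 1 to 3 genes were called higher and 0 to 3 lower, the lone library being assumed to vary like the others. No filter on low values gave 0 higher and 0 lower of 16813 genes, with a smallest adjusted p of 0.0535. No mean trend gave 611 and 245. The other alternatives gave 703 to 1013 higher and 470 to 791 lower. Of the genes called higher, 689 were also called after quantile normalization and 573 without the mean trend. Among the named genes that were called, 12 changed sign, in each case with a library left out. Of the named genes that were not called, 24 changed sign with a library left out and 2, KLF2 and NME2, under another pseudocount or scaling. For the 12, the lowest and highest log2 differences were -0.10 and 0.39 for ABCC3, -0.30 and 0.96 for CDKN1A, -0.11 and 0.54 for EGR1, -0.10 and 0.36 for EREG, -0.61 and 0.052 for HIST1H2AC, -0.040 and 0.67 for HSPA1A, -0.025 and 0.56 for HSPA1B, -0.57 and 0.99 for IL1A, -0.015 and 0.48 for ITGA2, -0.14 and 0.53 for JUNB, -1.24 and 0.12 for SPARC and -0.17 and 0.90 for VEGFA. The labels do not say what the numbers mark, depth is unknown, and 2 libraries a fraction limit every call.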

Other observations

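Differences were also set out along the genome, in windows of 20 Mb that held at least 20 tested genes with a mean of at least 5 FPKM, a division chosen after the data were seen. Of 137 windows, the median difference was above 0 in both numbers in 74 and below 0 in both in 28. The lowest window was on chromosome 11 from 120 to 140 Mb (30 genes, median -0.07, 16.7% called lower). On chromosome 21 from 40 Mb to the end, 25.6% of 43 genes were called lower. The share was 5.34% over all 8676 tested genes outside chromosome Y with a mean of at least 5 FPKM. The highest was on chromosome 18 from 20 to 40 Mb, where 7 of 20 genes were called higher. On chromosome 6 from 20 to 40 Mb, which holds the class I and histone genes, 43 of 159 genes were called higher. This was 27.0%, against 8.16% of the same 8676 genes. Chromosome 12 from 0 to 20 Mb had a median of -0.06 in the sorted libraries and of -0.98 between the resistant and parental library, the latter with no replicate.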
